A study of Homo sapiens with 15 samples.

Results

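RPMI8226 cells grown in the upper transwell above a coculture with stromal cells (TSW) were compared with RPMI8226 cells in monoculture (MONO). The genes described are those averaging 1 RPKM or more across the 6 RPMI8226 libraries, where RPKM is a gene's count of read pairs divided by its transcript length in kilobases and by its library's total on genes, on the usual per-million scale. Pseudogenes and mitochondrial tRNA genes were set aside from these, because the placement of reads on them may have differed in the TSW libraries. Of 20468 genes in the RPMI8226 table, 10319 passed the expression filter. Setting aside 198 pseudogenes and 21 mitochondrial tRNA genes left 10100 genes, of which 10068 were protein coding.

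RPMI8226 and MM.1S are established cell lines from human plasma cell myeloma, and the series holds RNA-Seq libraries of both lines in 3 culture conditions. In MONO the myeloma cells were grown alone. In the coculture system, myeloma cells sat in an upper transwell insert and also in the lower chamber together with HS5 cells, an established human bone marrow stromal line. TSW cells came from the insert and shared medium, but not contact, with HS5 cells, whereas CO cells came from the lower chamber and had both. TSW cells also shared that medium with the myeloma cells below them, and the parts of the 2 cell types cannot be told apart. The paper describes a buffer wash and a trypsin step for the coculture conditions and does not mention MONO there. Such handling, and the number of cells in the system, cannot be told apart from the condition. The myeloma cells were separated by cell sorting as CD90- CD38+, and libraries were made from mRNA. The paper reports a minimal remainder of HS5 cells in the sorted CO cells. It excluded a set of stromal signature genes, and no such set was removed here. CO levels of genes that HS5 cells express may thus include stromal RNA, which was not tested. Each RPMI8226 condition had 2 libraries and each MM.1S condition had 3. The model is 1 stromal line with established myeloma lines and no drug, and RPMI8226 CO libraries served to share the estimate of spread and to set a level beside TSW.

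Bone marrow stromal cells secrete cytokines that myeloma cells sense through receptors coupled to JAK kinases, which phosphorylate STAT transcription factors. STAT targets include their own feedback inhibitors, the SOCS proteins, and survival genes such as the PIM kinases and MCL1. Plasma cells and myeloma cells secrete large amounts of immunoglobulin and depend on the chaperones of the endoplasmic reticulum (ER) and on the unfolded protein response, while MYC and IRF4 sustain their growth.

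The depth was 12479636 and 14806058 pairs on genes in the MONO libraries and 18538060 and 17929263 pairs in the TSW libraries, and the CO libraries held 16315809 and 18789348. A single pair on a transcript of 2 kb corresponded to 0.0401 and 0.0338 RPKM in MONO and to 0.0270 and 0.0279 RPKM in TSW, and such limits cover counting error only. Differences are on the scale of log2(RPKM + 1), which understates the change of genes with low values. They were tested with limma, and a gene was called where its adjusted p was under 0.05 and its fold change also exceeded 1.5. With 2 libraries against 2, the smallest p of a two-sided exact permutation test would be 0.333, so the calls rest on a spread that limma shares between genes and conditions. No source used here says that libraries of a condition came from separate cultures, so the p-values measure only the spread between these libraries, which may be technical.

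The TSW libraries stood apart from the other RPMI8226 libraries in the levels of some pseudogenes and mitochondrial tRNA genes. It is called the placement pattern here, because reads may have been placed differently on near-identical gene copies. The cause was not tested. RPS14P3, a pseudogene of a ribosomal protein gene, had 94.8 and 93.6 RPKM in TSW, 4.78 and 6.37 in MONO and 6.44 and 5.59 in CO. FTH1P3, a pseudogene of the ferritin heavy chain gene whose name was chosen after its values were seen, had 22.4 and 23.5 RPKM in TSW, 1.93 and 0.779 in MONO and 2.75 in replicate 2 of MM.1S MONO. The mitochondrial tRNA gene trnN, picked for display after its values were seen, showed the opposite, with 2.22 and 1.53 RPKM in TSW, 82.3 and 120.3 in MONO and 228 and 221 in CO. Among the 9 MM.1S libraries, replicate 2 of MONO had a like pattern for RPS14P3, at 84.2 RPKM, and for trnN, at 1.44. The other MM.1S libraries had at most 5.83 RPKM of RPS14P3 and at least 362 RPKM of trnN. FTH1P3 stood higher in this replicate than in the other MM.1S libraries, at 2.75 RPKM, but far under its RPMI8226 TSW values. Summed over pseudogenes, the RPKM was 8747 and 8620 in MONO, 4900 and 5169 in TSW and 8860 and 8350 in CO. In MM.1S this sum did not set replicate 2 of MONO apart: it was 5117 there, and the other MM.1S libraries ranged from 4865 to 7943. The mitochondrial tRNA genes did not move together: of 21 tested, 4 were called higher in TSW, among them trnS1 (2.0), trnF (1.72) and trnE (1.07), and 6 lower. Their summed RPKM was 2012 and 2155 in MONO, 2174 and 1834 in TSW and 3160 and 3211 in CO.

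**Figure D1:**
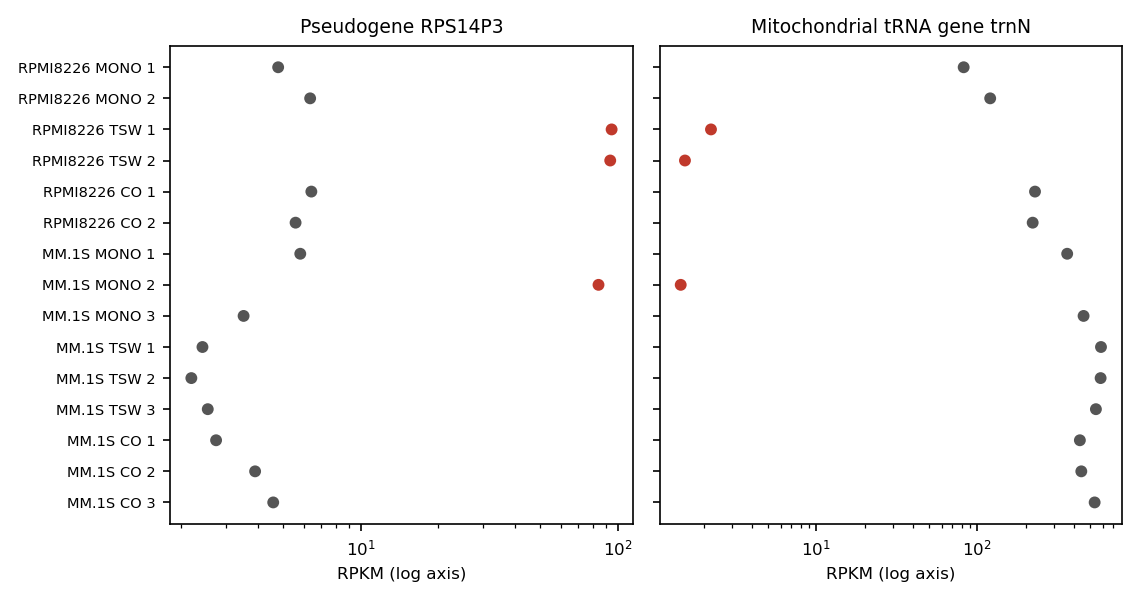
Level of the pseudogene RPS14P3 (left) and of the mitochondrial tRNA gene trnN (right) in each of the 15 libraries, in RPKM on a log axis. Both RPMI8226 TSW libraries and replicate 2 of MM.1S MONO, in red, are high for RPS14P3 and low for trnN, and the other 12 libraries, in grey, are low for RPS14P3 and high for trnN.

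In RPMI8226 this pattern coincides with the TSW condition and the 2 cannot be told apart. The departure of MM.1S MONO replicate 2 from the mean of MM.1S MONO replicates 1 and 3 was therefore set beside the calls. It is a rough description, without any change of culture, of how the pattern touches a gene. A departure also arises where replicate 1 stood apart. HIF1A, with a named pseudogene, had 3.51, 9.87 and 10.05 RPKM in replicates 1, 2 and 3. Of the 3257 genes called between TSW and MONO, 101 departed in MM.1S MONO replicate 2 by over 1.5 times in the same direction. Among the genes set aside, 22 of 45 pseudogenes called higher and 12 of 40 called lower departed so. For mitochondrial tRNA genes it was 4 of 4 and 4 of 6. A gene without the departure may thus still carry the pattern. Of 1839 tested genes after which RefSeq names a pseudogene, 140 (7.61%) were called higher and 445 (24.2%) lower, and 5 and 50 of these departed so. Of the other 8261 genes, 1311 (15.9%) were called higher and 1361 (16.5%) lower, and 28 and 18 departed so. Genes with a named pseudogene are reported as uncertain, and their name is followed by that remark where they are described.

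The TSW libraries carried the markers of plasma cells. The 10 plasma cell markers summed to 2490 and 2400 RPKM in MONO and to 4460 and 4270 RPKM in TSW, with JCHAIN, the joining chain of polymeric immunoglobulin with a named pseudogene, as the most abundant at 1466 and 1366 RPKM in MONO and 2585 and 2353 in TSW. SDC1, which encodes the plasma cell antigen CD138, had 70.4 and 73.2 RPKM in MONO and 96.4 and 98.7 RPKM in TSW. Among these markers TNFRSF17 and IRF4 were lower in TSW, TNFRSF17 at 73 and 68.8 RPKM in MONO and 6.4 and 4.43 RPKM in TSW and IRF4 at 78.9 and 77.7 RPKM in MONO and 43.7 and 37.2 RPKM in TSW. SLAMF7 had at most 2 pairs in any MONO or TSW library. Of 15 stromal markers, COL1A2, COL3A1, SPARC, LUM, DCN, POSTN, MMP1 and TFPI2 had no pair in any MONO or TSW library, while MMP1 reached 35.1 and 53.2 RPKM and TFPI2 15.7 and 22.4 RPKM in CO. The stromal sum was nearly all FN1, the fibronectin gene, which RPMI8226 cells expressed in monoculture too: the sum was 4010 and 4330 RPKM in MONO and 1710 and 2000 RPKM in TSW. Markers of T cells, B cells and erythroid cells stayed under 1 RPKM in every MONO and TSW library, and among the 3 myeloid markers CSF1R reached 1.53 and 2.23 RPKM in TSW from 0.0797 and 0.168 in MONO.

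A large part of the transcriptome differed between TSW and MONO. The lists of interferon-stimulated genes, MHC class I presentation, JAK/STAT signalling, the ATF4 stress response and ER chaperones held far more genes higher than lower in TSW. The lists of DNA replication, ribosome biogenesis, mitosis and heat shock chaperones held far more genes lower than higher. Of the 10100 genes, 3257 (32.2%) were called, against 32.5% of all 10319 genes tested. There were 1451 genes (14.4%) higher in TSW and 1806 genes (17.9%) lower in TSW, and 6843 were not called. These shares are the background for the counts of each list below. Which direction held more calls depended on the setting: genes higher in TSW were 44.6% of those called here, 49.1% without genes with a named pseudogene, 52.1% with median-of-ratios scaling and 54.3% with correction for GC content and length. Among called genes the median difference was 0.95 for those higher and -0.83 for those lower. Large increases outnumbered large decreases, with 163 genes higher and 42 genes lower by over 2 on the log2 scale, and 51 and 7 by over 3. The values of MONO and TSW did not overlap for 8380 genes (83%), for all 1451 called higher and for 1805 of the 1806 called lower. Most called genes named below were chosen among those without overlap, so their lack of overlap describes that choice. There were 20 genes under 1 RPKM in both MONO libraries and at 10 RPKM or more in both TSW libraries, and 4 genes with the reverse. Without a fold change threshold, 2930 genes were higher and 3837 lower.

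**Figure D2:**
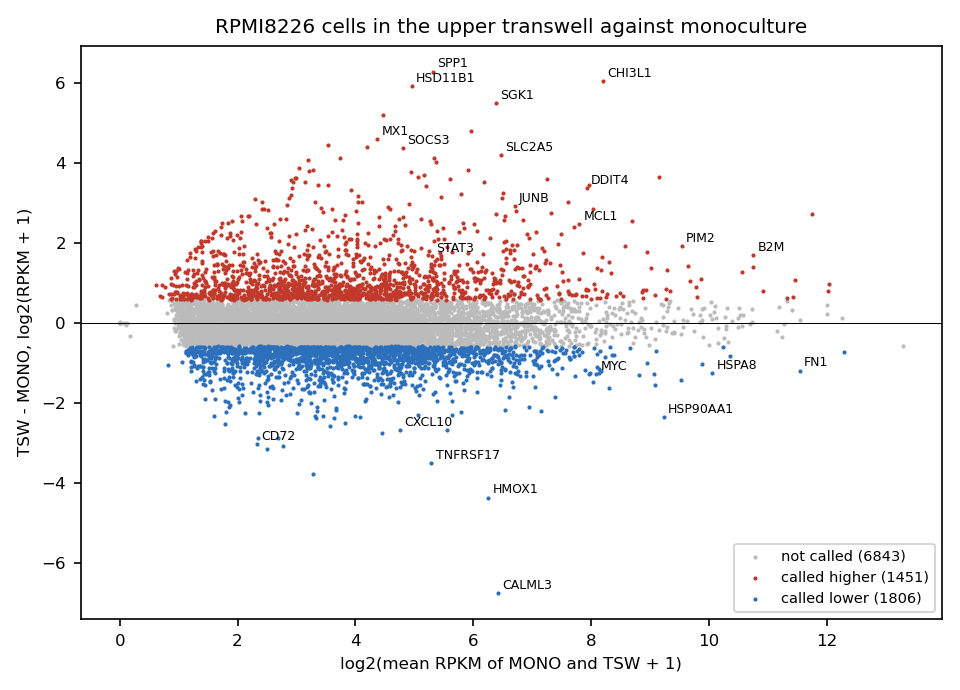
Difference between TSW and MONO in log2(RPKM + 1) against the log2 of the mean RPKM of both conditions + 1, 1 point per gene, with 1451 genes called higher in red, 1806 called lower in blue and 6843 not called in grey. The largest increases, such as SPP1 and CHI3L1, lie further from 0 than all decreases except CALML3.

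Between the libraries, principal components of the 6 RPMI8226 libraries put 86.4% of the variance on PC1. The MONO libraries lay at -51.3 and -51.33 on PC1, the TSW libraries at 21.2 and 18.7 and the CO libraries at 31.9 and 30.8, so that TSW lay close to CO and far from MONO. PC2 carried 9.95% of the variance and separated TSW, at 12.5 and 19.4, from CO, at -14.4 and -12.9. The Euclidean distance was between 73.2 and 75.1 from MONO to TSW, between 30.4 and 37.5 from TSW to CO, 14.8 within MONO and 18 within TSW. Each MONO library thus lay over 4 times as far from each TSW library as replicates of these conditions lay from each other.

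SPP1 (NCBI gene 6696), which encodes the secreted bone matrix protein osteopontin, had no pair in either MONO library and 70.4 and 85.2 RPKM in TSW. Both TSW libraries were far above both MONO libraries, and the mean of the TSW libraries was at least 637-fold higher than a floor of 3 pairs per library (log2 difference 6.29, SE 0.10, limma adjusted p = 6.6e-11). HSD11B1, the enzyme that regenerates active cortisol from cortisone, had no pair in MONO and 63.1 and 57.2 RPKM in TSW, with a mean at least 425-fold higher. CFI, a protease that inactivates complement, likewise had no pair in MONO and 22 and 20.2 RPKM in TSW, with a mean at least 241-fold higher. For these genes the fitted difference depends on the pseudocount: with a pseudocount of 0.1 in place of 1 it was 9.6 for SPP1, 9.23 for HSD11B1 against 5.93, and 7.72 for CFI against 4.46.

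CHI3L1, a secreted chitinase-like glycoprotein, had 8.06 and 7.44 RPKM in MONO and 546 and 614 RPKM in TSW. It was among the more abundant transcripts of TSW and stood higher in CO, at 791 and 787 RPKM (log2 difference 6.05, SE 0.07, limma adjusted p = 1.5e-11 for TSW vs MONO). SGK1, a kinase induced by serum and glucocorticoids, went from 2.19 and 3.02 RPKM in MONO to 167 and 157 in TSW (log2 difference 5.51, SE 0.11, limma adjusted p = 1.5e-10). MMP13, a collagenase, had 3.95 and 2.66 RPKM in MONO and 139 and 99.3 RPKM in TSW, and the 2 TSW libraries differed more from each other here than for SGK1, without reaching the MONO values (log2 difference 4.8, SE 0.17, limma adjusted p = 5.9e-09). The muscle genes MYBPC2 and MYBPH, which encode myosin binding proteins C and H, were under 1 RPKM in MONO. MYBPC2 had 0.178 and 0.15 RPKM in MONO and 39.6 and 45.1 RPKM in TSW and MYBPH had 0.57 and 0.707 RPKM in MONO and 29.1 and 38.9 RPKM in TSW. All 4 TSW values of these genes were above all MONO values (log2 differences 5.21 and 4.4), and the difference of MYBPC2 was 7.93 with limma-voom on pair counts.

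**Figure D3:**
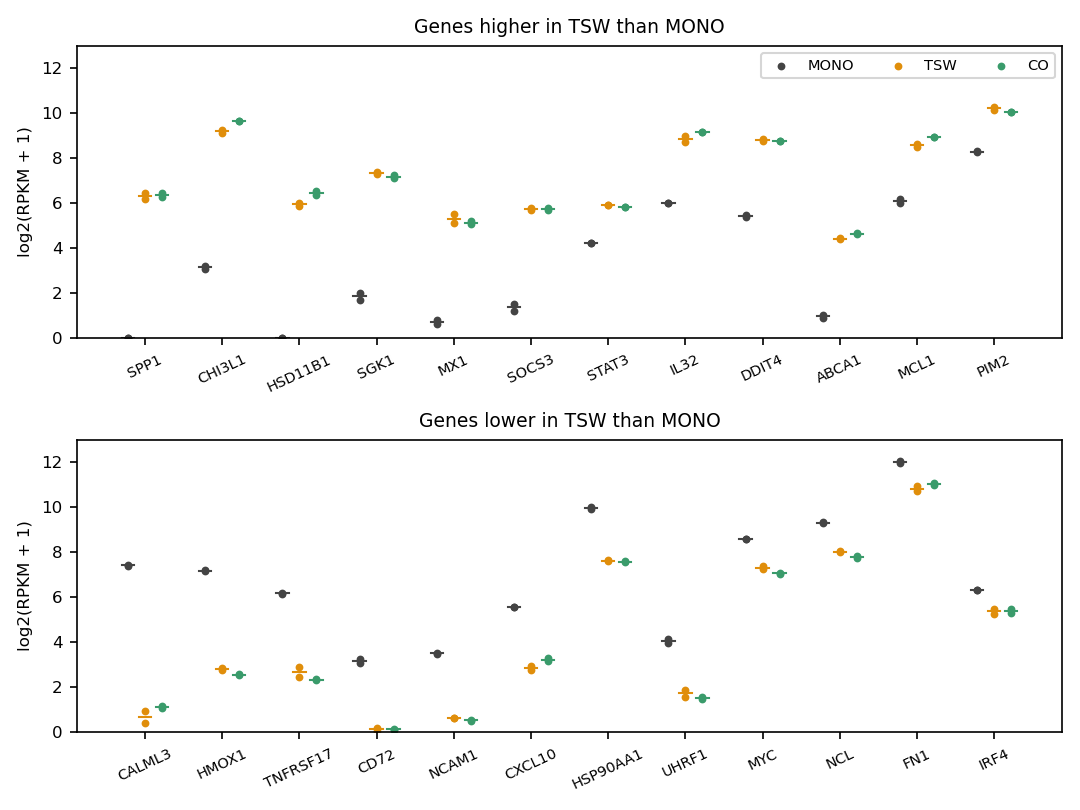
Expression as log2(RPKM + 1) of 12 genes higher (top) and 12 genes lower (bottom) in TSW than in MONO, with 1 point per library, a short line at the mean of 2 libraries, and MONO in grey, TSW in orange and CO in green. For each gene the MONO points lie apart from the TSW points, and the CO points lie nearer to TSW than to MONO.

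The strongest decreases were fewer. CALML3, a calmodulin-like calcium binding protein, had 168 and 171 RPKM in MONO and 0.313 and 0.889 RPKM in TSW. Both TSW libraries were close to 0 where both MONO libraries were high (log2 difference -6.76, SE 0.14, limma adjusted p = 2.3e-10). HMOX1, which degrades heme and is a target of the oxidative stress factor NRF2, had 141 and 148 RPKM in MONO and 5.87 and 6.24 RPKM in TSW (log2 difference -4.37, SE 0.08, limma adjusted p = 9.3e-11). TNFRSF17, the gene of the plasma cell receptor BCMA and a target of myeloma immunotherapy, had 73 and 68.8 RPKM in MONO and 6.4 and 4.43 RPKM in TSW (log2 difference -3.5, SE 0.13, limma adjusted p = 8.1e-09). For HMOX1 and TNFRSF17 the TSW values lay far under the MONO values, and the groups did not overlap. PCP4, a regulator of calmodulin, had 17.3 and 17 RPKM in MONO and 0.097 and 0.602 RPKM in TSW (log2 difference -3.78, SE 0.16, limma adjusted p = 2.9e-08, or -5.81 with limma-voom on pair counts).

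CD72, a coreceptor of B cells, had 7.45 and 8.53 RPKM in MONO and 0.142 and 0.0489 RPKM in TSW. NCAM1, the adhesion molecule CD56, had 10.6 and 10 RPKM in MONO and 0.531 and 0.53 RPKM in TSW. EMP2, a membrane protein with a named pseudogene, had 37.6 and 36.5 RPKM in MONO and 4.32 and 4.91 RPKM in TSW. These genes fell by 3.04, 2.89 and 2.76 on the log2 scale, with MONO and TSW values apart. The immunoglobulin variable segments IGKV1D-8, IGLV6-57 and IGKV3D-7 were also among the 10 largest decreases, but such segments resemble each other closely and their counts are uncertain. IGKV1D-8 had 8.45 and 10 RPKM in MONO and 0 and 0.318 RPKM in TSW, IGLV6-57 had 10.7 and 11.9 RPKM in MONO and 0.306 and 0.632 RPKM in TSW, and IGKV3D-7 had 8.3 and 7.57 RPKM in MONO and 0.453 and 0 RPKM in TSW. With a pseudocount of 0.1 the differences were -5.41 for CD72, -5.51 for IGKV1D-8 against -3.15, and -5.09 for IGKV3D-7 against -2.89.

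Among 36 tested genes of JAK/STAT signalling and its feedback, 17 rose and 0 fell in the limma test (at an unadjusted p under 0.05, 25 higher and 4 lower), and the median difference was 0.49 against -0.08 over all 10100 genes. The median was 0.80 with the expression filter at 5 RPKM and 0.95 without genes with a named pseudogene. SOCS3, the feedback inhibitor of JAK kinases, had 1.82 and 1.31 RPKM in MONO and 50.9 and 53.8 RPKM in TSW. Its TSW values were nearly equal and far above MONO (log2 difference 4.39, SE 0.10, limma adjusted p = 3.1e-10). STAT3, the main transducer of IL-6 signals, had 17.6 and 17.9 RPKM in MONO and 58.2 and 59.6 RPKM in TSW (log2 difference 1.68, SE 0.07, limma adjusted p = 1.5e-08). STAT2, a factor of the type I interferon response, had 6.18 and 5.35 RPKM in MONO and 53.1 and 51.6 RPKM in TSW (log2 difference 2.98, SE 0.08, limma adjusted p = 1.3e-09). Both of these STAT genes were higher in both TSW libraries than in either MONO library.

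The PIM kinases are survival kinases transcribed under STAT control. PIM2 was the most abundant gene of the list, with 305 and 313 RPKM in MONO and 1126 and 1230.2 RPKM in TSW (log2 difference 1.93, SE 0.07, limma adjusted p = 6.5e-09). PIM3 had 15.3 and 16.4 RPKM in MONO and 36.2 and 40.2 RPKM in TSW (log2 difference 1.22, SE 0.08, limma adjusted p = 4.4e-07). BCL3, a coactivator of NF-kappaB that also responds to STAT3, had 2.98 and 2.57 RPKM in MONO and 28.2 and 31.7 RPKM in TSW, and its TSW values lay clear of its MONO values (log2 difference 3.04, SE 0.09, limma adjusted p = 2.1e-09).

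Of 35 tested NF-kappaB subunits, regulators and targets, 16 rose and 3 fell (median 0.29, or 0.17 with no expression filter and 0.45 with the filter at 5 RPKM). IL32, a cytokine gene of lymphocytes and the most abundant of the list, had 61.9 and 62.9 RPKM in MONO and 418 and 507 RPKM in TSW (log2 difference 2.86, SE 0.09, limma adjusted p = 2.2e-09). BIRC3, an inhibitor of apoptosis, had 9.6 and 8.22 RPKM in MONO and 46.5 and 37 RPKM in TSW, and ICAM1, an adhesion ligand of leukocyte integrins, had 58.4 and 60.5 RPKM in MONO and 194 and 201 RPKM in TSW. Both rose with no overlap of the libraries (log2 differences 2.1 and 1.72). CXCL8, the neutrophil chemokine IL-8, was near 0 in MONO at 0.047 and 0.158 RPKM. It had 3.42 and 3.66 RPKM in TSW (log2 difference 2.04, or 4.22 with a pseudocount of 0.1) and 42.7 and 67.9 in CO. These CO values may include RNA of remaining HS5 cells, which was not tested. The 3 that fell were CXCL10, a chemokine induced by interferon gamma, with 46.3 and 45.6 RPKM in MONO and 6.74 and 5.87 RPKM in TSW, the subunit REL, with 3.07 and 2.75 RPKM in MONO and 1.51 and 1.18 RPKM in TSW (log2 difference -0.74, or -1.11 with limma-voom on pair counts), and the kinase IKBKE, with 14.4 and 15.4 RPKM in MONO and 8.15 and 10.2 RPKM in TSW. The call of IKBKE ended under 3 settings, at -0.57 after correction for GC content and length, -0.58 with median-of-ratios scaling and -0.50 without TSW replicate 1, from -0.65.

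In the list of AP-1 and ATF factors, 9 of 18 tested members rose and 2 fell (median 0.55). JUNB, the AP-1 subunit with the highest level, had 25.1 and 21.5 RPKM in MONO and 177 and 191 RPKM in TSW (log2 difference 2.93, SE 0.08, limma adjusted p = 1.3e-09). FOS had 0 and 0.188 RPKM in MONO and 3.77 and 2.58 RPKM in TSW, ATF3, a factor of the stress response, had 1.88 and 2.0 RPKM in MONO and 11.6 and 9.57 RPKM in TSW, and CEBPB, a basic leucine zipper factor that pairs with ATF4, had 3.69 and 3.08 RPKM in MONO and 14.9 and 11.1 RPKM in TSW. JUNB, FOS, ATF3 and CEBPB were each higher in both TSW libraries. The fitted difference of FOS moved from 1.92 to 4.25 with a pseudocount of 0.1, and 1 of its MONO libraries had no pair. The genes that fell were CEBPZ (-0.71) and MAFK (-0.63), and MAFK was no longer called after correction for GC content and length (-0.54), with median-of-ratios scaling (-0.56) or without MONO replicate 1 (-0.55).

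The list of ERK feedback genes had 9 of 16 tested higher and 2 lower (median 0.76). Besides phosphatases of the DUSP family it holds other genes, such as SGK1 and MYC, so its counts do not describe feedback inhibitors alone. SGK1, described above among the largest increases, is counted here among the genes that rose. With no expression filter the median of this list was 0.29. The ERK phosphatase DUSP6 had 5.1 and 4.5 RPKM in MONO and 21.3 and 22.1 RPKM in TSW, and DUSP5, with a named pseudogene, had 21.4 and 20.3 RPKM in MONO and 141 and 149 RPKM in TSW. ETV5, an ETS factor downstream of ERK, had 14.2 and 13.2 RPKM in MONO and 55.4 and 51.2 RPKM in TSW. These rose by 1.97, 2.74 and 1.89 on the log2 scale, and their TSW values did not reach down to MONO. The genes of this list that fell were DUSP7, at 14.3 and 14.5 RPKM in MONO and 4.07 and 4.29 RPKM in TSW, and MYC, the transcription factor of cell growth with the highest level in the list, at 384 and 384 RPKM in MONO and 152 and 166 RPKM in TSW (log2 difference -1.27, SE 0.07, limma adjusted p = 9.9e-08). MYC was thus lower in both TSW libraries by more than the spread between replicates.

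The interferon-stimulated genes had the highest share of called members among the 29 lists. Of 54 tested, 51 rose and 0 fell in the limma test (at an unadjusted p under 0.05, 53 higher and 1 lower), with a median difference of 2.1 in TSW against -0.08 over all genes, and their summed level was 866 and 869 RPKM in MONO and 3688 and 3474 RPKM in TSW. CXCL10, which interferon gamma induces, fell but is not a member of this list. MX1, an antiviral GTPase, had 0.708 and 0.54 RPKM in MONO and 44 and 33.6 RPKM in TSW (log2 difference 4.6, SE 0.12, limma adjusted p = 1.1e-09). OAS1, a sensor of double-stranded RNA, had 4.55 and 3.74 RPKM in MONO and 71.4 and 60.2 RPKM in TSW, and its relative OASL had 6.69 and 7.06 RPKM in MONO and 108 and 116 RPKM in TSW. Each of these antiviral genes was low in both MONO libraries and high in both TSW libraries. IFI44, an interferon-induced gene of the antiviral program, had 0.239 and 0.101 RPKM in MONO and 16.2 and 11 RPKM in TSW (log2 difference 3.62, or 5.69 with a pseudocount of 0.1). BST2, the membrane protein tetherin and the most abundant of the list, had 285 and 288 RPKM in MONO and 719 and 774 RPKM in TSW (log2 difference 1.38, SE 0.06, limma adjusted p = 4.7e-08).

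MHC class I molecules present peptides to T cells, and 14 of 21 tested genes of that pathway rose while 1 fell (median 0.98). B2M, the invariant chain of class I molecules, had 829 and 790.2 RPKM in MONO and 2791 and 2509.6 RPKM in TSW (log2 difference 1.71, SE 0.07, limma adjusted p = 2.8e-08). TAP1, a subunit of the peptide transporter, had 33.5 and 36.2 RPKM in MONO and 146 and 147 RPKM in TSW (log2 difference 2.04, SE 0.07, limma adjusted p = 4.1e-09). The nonclassical molecule HLA-E had 42.6 and 43.1 RPKM in MONO and 174 and 166 RPKM in TSW, and HLA-F had 4.28 and 4.12 RPKM in MONO and 21.6 and 22.3 RPKM in TSW, where reads may be split with related class I genes, so both are uncertain. The gene that fell was ERAP1, a peptidase that trims peptides in the ER, with 17 and 16.4 RPKM in MONO and 11.1 and 10.2 RPKM in TSW. Its call ended with median-of-ratios scaling (-0.53), with quantile normalization (-0.55), without MONO replicate 1 (-0.58) and without TSW replicate 2 (-0.55), from -0.61.

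MHC class II genes gave no common direction. Among 14 tested, 1 rose (7.14%) and 2 fell (14.3%), against 14.4% and 17.9% of all 10100 genes. The median of -0.01 changed sign with median-of-ratios scaling (0.05), with correction for GC content and length (0.13) and with the filter at 5 RPKM (0.05). It also did so without MONO replicate 1 (0.01) and without TSW replicate 2 (0.01). CTSS, the protease that degrades the invariant chain, had 33.1 and 32 RPKM in MONO and 109 and 110.2 RPKM in TSW (log2 difference 1.72, SE 0.06, limma adjusted p = 8.8e-09). CD74, the invariant chain itself, had 521 and 538 RPKM in MONO and 697 and 810.5 RPKM in TSW and was not called (log2 difference 0.50), except without TSW replicate 1 (0.61), after correction for GC content and length (0.59) and without a fold change threshold. HLA-DMB, part of the molecule that loads class II peptides, had 4.19 and 4.59 RPKM in MONO and 1.24 and 1.92 RPKM in TSW and fell, as did HLA-DPA1, with 7.25 and 7.82 RPKM in MONO and 4.12 and 5.3 RPKM in TSW. The call of HLA-DPA1 ended without TSW replicate 1 (-0.44 against -0.59), without MONO replicate 2 (-0.54), with correction for GC content and length (-0.40), with median-of-ratios scaling (-0.52) and with quantile normalization (-0.55).

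Because the interferon-stimulated and class I genes moved together, the promoters of 4 of them are shown, each a window of 300 bases around the start of the gene from RefSeq, on GRCh38.p14 and written 5′ to 3′ on the gene's strand. The MX1 window is chr21:41420308-41420607 on the plus strand, that of IFI44 is chr1:78649539-78649838 on the plus strand, that of TAP1 is chr6:32853655-32853954 on the minus strand and that of B2M is chr15:44711267-44711566 on the plus strand. Capitals mark matches on either strand to the core of the interferon-stimulated response element, which is GAAA, any 2 bases and GAAA again, and overlapping matches in TAP1 and B2M form 1 run of capitals. This motif was added after the values were seen.
MX1: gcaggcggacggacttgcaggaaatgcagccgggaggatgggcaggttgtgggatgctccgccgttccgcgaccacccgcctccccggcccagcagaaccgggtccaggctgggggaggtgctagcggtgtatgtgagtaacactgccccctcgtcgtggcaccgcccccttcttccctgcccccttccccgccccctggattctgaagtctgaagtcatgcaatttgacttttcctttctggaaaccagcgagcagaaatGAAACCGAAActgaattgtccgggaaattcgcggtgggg
IFI44: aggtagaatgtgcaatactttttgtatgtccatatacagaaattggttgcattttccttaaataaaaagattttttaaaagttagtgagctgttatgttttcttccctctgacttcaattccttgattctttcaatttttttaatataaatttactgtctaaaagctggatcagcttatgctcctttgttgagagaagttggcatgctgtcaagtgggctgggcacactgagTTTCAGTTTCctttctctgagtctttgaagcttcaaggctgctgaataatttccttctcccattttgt
TAP1: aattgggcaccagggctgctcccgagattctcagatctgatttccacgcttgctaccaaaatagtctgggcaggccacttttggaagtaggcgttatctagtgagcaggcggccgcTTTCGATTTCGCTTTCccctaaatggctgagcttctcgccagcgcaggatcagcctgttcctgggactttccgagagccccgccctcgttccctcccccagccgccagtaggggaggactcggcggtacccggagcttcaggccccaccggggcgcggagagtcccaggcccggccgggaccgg
B2M: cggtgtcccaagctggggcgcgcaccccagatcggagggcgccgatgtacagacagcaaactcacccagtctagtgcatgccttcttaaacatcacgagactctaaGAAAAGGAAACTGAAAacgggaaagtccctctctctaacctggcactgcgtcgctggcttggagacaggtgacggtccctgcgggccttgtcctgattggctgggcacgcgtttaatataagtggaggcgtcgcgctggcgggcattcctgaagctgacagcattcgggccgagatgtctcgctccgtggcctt
The MX1 and IFI44 windows hold 1 match each, and the TAP1 and B2M windows hold 2 each. Promoters of this kind were found for 8381 of the 10100 genes. Of all 27305 promoters of this length, 3.65% held a match, compared with 5.83% of the genes higher in TSW (68 of 1166 with a promoter), 2.25% of those lower, 2.51% of those not called and 68.2% of the interferon-stimulated genes (30 of 44). Among named genes that fell in TSW, CXCL10, ERAP1 and ATF5 held a match too. A match describes the sequence and is not evidence that a factor bound it.

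ATF4 is the transcription factor of the integrated stress response and drives amino acid synthesis and transport. In this list, 29 of 42 tested members rose and 1 fell (median 0.87). ATF4 itself, which has a named pseudogene and is regulated largely in translation, had 157 and 154 RPKM in MONO and 259.7 and 243 RPKM in TSW (log2 difference 0.69, SE 0.08, limma adjusted p = 3.8e-05). DDIT4, an inhibitor of mTORC1 with a high level in TSW, had 39.9 and 43.3 RPKM in MONO and 458 and 428 RPKM in TSW (log2 difference 3.38, SE 0.07, limma adjusted p = 1.9e-10). CHAC1, a glutathione-degrading enzyme, had 0.514 and 0.39 RPKM in MONO and 14.6 and 10.6 RPKM in TSW (log2 difference 3.21, SE 0.15, limma adjusted p = 4.4e-08). For both genes the MONO libraries were low and the TSW libraries high. CTH, which makes cysteine, had 0.854 and 1.52 RPKM in MONO and 18.5 and 14.9 RPKM in TSW, and PHGDH, which opens serine synthesis, had 5.42 and 5.37 RPKM in MONO and 33.7 and 26.2 RPKM in TSW. ATF5 was the member that fell, with 8.51 and 9.64 RPKM in MONO and 4.15 and 4.45 RPKM in TSW.

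The promoter windows of CHAC1 and ATF3 are shown as members of the stress response that moved together and hold TGATGNAA, the composite motif of ATF4 with a C/EBP partner, searched on both strands and marked by capitals. The CHAC1 window is chr15:40953221-40953520 on the plus strand and the ATF3 window is chr1:212565157-212565456 on the plus strand, both of GRCh38.p14 from RefSeq.
CHAC1: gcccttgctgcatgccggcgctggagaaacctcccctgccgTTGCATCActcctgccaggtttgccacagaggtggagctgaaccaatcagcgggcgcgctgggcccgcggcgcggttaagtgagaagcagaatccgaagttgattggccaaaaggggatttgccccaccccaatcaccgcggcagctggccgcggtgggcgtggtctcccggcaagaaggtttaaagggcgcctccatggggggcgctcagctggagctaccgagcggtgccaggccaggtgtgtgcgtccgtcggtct
ATF3: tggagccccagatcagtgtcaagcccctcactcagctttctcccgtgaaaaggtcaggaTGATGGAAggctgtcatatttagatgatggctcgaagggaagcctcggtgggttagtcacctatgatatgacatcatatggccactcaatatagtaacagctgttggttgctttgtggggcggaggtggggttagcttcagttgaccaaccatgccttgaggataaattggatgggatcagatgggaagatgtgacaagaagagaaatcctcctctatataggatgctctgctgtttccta
Each window holds 1 match. The motif was in 3.67% of all promoters, in 2.57% of those of genes higher in TSW, in 1.16% of those of genes lower, in 1.58% of those of genes not called and in 26.5% of the ATF4 list (9 of 34). Each motif was searched on its own, so matches of different motifs may overlap. The ER stress element, CCAAT and CCACG with 9 bases between them, was in 0.0806% of all promoters and in 14.6% of the ER list (7 of 48). The STAT motif TTCNNNGAA was in 7.88% of all promoters, in 7.55% of those of genes higher, 5.18% of genes lower and 6.21% of genes not called. It was in 9.68% of the JAK/STAT list (3 of 31) and 25% of the interferon-stimulated genes (11 of 44), and the SOCS3 window held none. The AP-1 motif TGANTCA was in 7.76% of all promoters, 6.35% of those of genes higher, 3.48% of genes lower and 4.11% of genes not called. The sterol motif TCACNCCAC was in 1.15% of all promoters, 1.97% of those of genes higher, 0.886% of genes lower and 0.992% of genes not called. Absence of a match says only that these letters are not in the window.

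ER chaperones and genes of the unfolded protein response showed 21 of 53 tested genes higher and 0 lower by limma (at an unadjusted p under 0.05, 38 higher and 0 lower). Their median difference was 0.49. XBP1, the transcription factor of this response in plasma cells, with a named pseudogene, had 192 and 191 RPKM in MONO and 441 and 466 RPKM in TSW (log2 difference 1.24, SE 0.06, limma adjusted p = 8.8e-08). HERPUD1, a component of ER-associated degradation, had 69.1 and 71.1 RPKM in MONO and 167 and 152 RPKM in TSW. EDEM1, which directs misfolded glycoproteins to degradation, had 50 and 51 RPKM in MONO and 170.2 and 141 RPKM in TSW, and the cochaperone DNAJB9 had 15.1 and 13.5 RPKM in MONO and 34.8 and 27.7 RPKM in TSW. These genes rose, and in each the lower TSW library was above the higher MONO library. The abundant chaperone CALR was not called, at 1069.7 and 1059 RPKM in MONO and 1138 and 1204 RPKM in TSW.

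Heat shock chaperones, a list of HSF1 targets that includes mitochondrial members such as HSPE1, moved the other way. Of 21 tested, 0 rose and 17 fell by limma (at an unadjusted p under 0.05, 1 higher and 20 lower). The median was -1.03, and the summed level was 6963 and 6803 RPKM in MONO and 2875 and 3114 RPKM in TSW. HSP90AA1, the inducible form of HSP90, had 1031 and 983 RPKM in MONO and 195 and 199 RPKM in TSW (log2 difference -2.35, SE 0.06, limma adjusted p = 1.1e-09), while its value in MM.1S MONO replicate 2 departed by -0.54. HSPA8, the constitutive HSP70 with a named pseudogene, had 1515 and 1491 RPKM in MONO and 594 and 669.9 RPKM in TSW (log2 difference -1.25, SE 0.07, limma adjusted p = 1.9e-07). HSPH1, a nucleotide exchange factor of HSP70, had 78.3 and 70.8 RPKM in MONO and 22.2 and 20.7 RPKM in TSW, and FKBP4, a cochaperone of HSP90 with a named pseudogene, had 49.2 and 47.7 RPKM in MONO and 13.9 and 17.3 RPKM in TSW. Both TSW libraries were lower than both MONO libraries for each of these genes. HSPE1, the mitochondrial HSP10 with a named pseudogene, fell as well (-2.21), but departed by -1.41 in MM.1S MONO replicate 2 and is uncertain.

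Genes of DNA replication and nucleotide synthesis fell broadly, with 45 of 65 tested lower and 0 higher by limma (at an unadjusted p under 0.05, 2 higher and 61 lower). Their median was -0.81. MCM5, a subunit of the replicative helicase, had 95.4 and 99.7 RPKM in MONO and 38.1 and 44.2 RPKM in TSW (log2 difference -1.23, SE 0.08, limma adjusted p = 6.2e-07). UHRF1, which couples DNA methylation to replication, had 14.8 and 16.4 RPKM in MONO and 1.96 and 2.71 RPKM in TSW (log2 difference -2.32, SE 0.12, limma adjusted p = 1.0e-07). GINS2, another part of the helicase, had 51.3 and 52.1 RPKM in MONO and 13.7 and 14.4 RPKM in TSW, and TYMS, the thymidylate synthase with a named pseudogene, had 83.7 and 88.6 RPKM in MONO and 23.8 and 28.8 RPKM in TSW. The TSW values of these genes were all under the MONO values. TK1, the most abundant gene of the list, was not called and stood slightly higher in TSW, at 178 and 186 RPKM in MONO and 213 and 254 RPKM in TSW. In these bulk libraries, fewer cells in S phase and less of these RNAs per cell cannot be told apart.

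In the list of G2/M and mitosis, 25 of 65 tested genes fell and 0 rose by limma (at an unadjusted p under 0.05, 1 higher and 52 lower), with a median of -0.46. CDC20, an activator of the anaphase-promoting complex with a named pseudogene, had 106 and 105 RPKM in MONO and 41.7 and 44.9 RPKM in TSW, and ESPL1, the separase, had 18.8 and 20.1 RPKM in MONO and 7.36 and 7.88 RPKM in TSW. CENPM, a centromere protein, had 23.2 and 26.8 RPKM in MONO and 9.81 and 11.9 RPKM in TSW. All 3 fell with no overlap (log2 differences -1.27, -1.25 and -1.14). The abundant HMGB2, with a named pseudogene, stood at 241 and 233 RPKM in MONO and 151 and 165 RPKM in TSW and was just under the fold threshold (-0.58), passing it without TSW replicate 2 (-0.65), without MONO replicate 2 (-0.60), with quantile normalization (-0.61), with a pseudocount of 0.1 (-0.59) and with limma-voom (-0.59).

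Cyclins, their kinases and the inhibitors moved in both directions, with 4 of 18 higher and 7 lower, and no direction is given for the list, whose median was 0.09, 0.16 with median-of-ratios scaling, 0.29 without genes with a named pseudogene and 0 with no expression filter. The genes that rose were the inhibitors CDKN1A, CDKN2D and CDKN1B and the retinoblastoma gene RB1. CDKN1A, the p21 inhibitor, had 4.31 and 4.99 RPKM in MONO and 22.3 and 21.7 RPKM in TSW (log2 difference 2.03, SE 0.09, limma adjusted p = 2.3e-08). CDKN1B, the p27 inhibitor, had 20.4 and 18.4 RPKM in MONO and 48.4 and 43.8 RPKM in TSW (log2 difference 1.21, SE 0.09, limma adjusted p = 1.1e-06). CDKN2D had 1.91 and 1.14 RPKM in MONO and 8.72 and 10.2 RPKM in TSW and RB1 had 18.7 and 16.5 RPKM in MONO and 35.5 and 28.9 RPKM in TSW. Among the genes that fell, CCND2, the most abundant D-type cyclin here, with a named pseudogene, had 145 and 147 RPKM in MONO and 73.1 and 71.6 RPKM in TSW (log2 difference -1.0, SE 0.06, limma adjusted p = 3.2e-07). CCND1 had 13.5 and 11.8 RPKM in MONO and 3.66 and 3.72 RPKM in TSW, CCNE1 had 12.7 and 13.7 RPKM in MONO and 4.59 and 4.85 RPKM in TSW, and CDC25A, a phosphatase that activates CDKs, had 29.5 and 29.9 RPKM in MONO and 8.69 and 9.05 RPKM in TSW. CDKN1C was an inhibitor that fell, at 5.7 and 5.18 RPKM in MONO and 0.871 and 1.3 RPKM in TSW.

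Ribosome biogenesis and nucleolar genes, many of them MYC targets, fell in 43 of 52 cases and rose in 0 by limma (at an unadjusted p under 0.05, 0 higher and 51 lower), with a median of -0.94. The nucleolar protein NCL, with a named pseudogene, had 653 and 619.5 RPKM in MONO and 257 and 262 RPKM in TSW (log2 difference -1.29, SE 0.07, limma adjusted p = 9.0e-08). MRTO4, a ribosome assembly factor, had 67.6 and 71.4 RPKM in MONO and 21.8 and 24.2 RPKM in TSW, and UTP20, which processes ribosomal RNA, had 24.6 and 25.9 RPKM in MONO and 8.4 and 7.77 RPKM in TSW (log2 differences -1.56 and -1.53). The MONO and TSW libraries did not overlap for either. NPM1, with a named pseudogene, had 493 and 457 RPKM in MONO and 163 and 146 RPKM in TSW and departed by -0.65 in MM.1S MONO replicate 2.

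Mitochondrial ribosomal protein genes had 28 of 78 lower and 0 higher by limma (at an unadjusted p under 0.05, 2 higher and 68 lower), with a median of -0.46. Examples that fell were MRPL3, with a named pseudogene, at 153 and 147 RPKM in MONO and 64.6 and 58 RPKM in TSW, and MRPL18, the most abundant, at 187 and 174 RPKM in MONO and 108 and 105 RPKM in TSW. MRPL1 had 19.8 and 19.5 RPKM in MONO and 4.75 and 2.95 RPKM in TSW and departed by -0.67 in MM.1S MONO replicate 2. Proteasome genes were mostly not called, with 1 of 39 higher (2.56%) and 6 lower (15.4%). The shares over all 10100 genes were 14.4% and 17.9%. The median of the proteasome list was -0.23, or -0.12 after correction for GC content and length. The gene that rose was NFE2L1, the transcription factor that restores proteasome genes, with 41.2 and 38.7 RPKM in MONO and 175 and 144 RPKM in TSW (log2 difference 1.96, SE 0.13, limma adjusted p = 4.1e-07). The proteasome activator subunit PSME3 fell, at 106 and 103 RPKM in MONO and 52.6 and 52.1 RPKM in TSW, and the abundant subunit PSMB4 was not called, at 362 and 376 RPKM in MONO and 348 and 373 RPKM in TSW. In nuclear-encoded oxidative phosphorylation 2 of 76 rose and 4 fell, and the median of -0.06 changed sign with median-of-ratios scaling (0.02), with correction for GC content and length (0.05) and without genes with a named pseudogene (0.03). The call of NDUFA1, a gene that rose by 0.60, ended with quantile normalization (0.46), without MONO replicate 1 (0.57) and without TSW replicate 2 (0.52), and that of ATP5F1, which has a named pseudogene and fell by 0.68, ended after correction for GC content and length (-0.50). ATP5G1, a subunit of the ATP synthase with a named pseudogene, fell from 369 and 375 RPKM to 165 and 184.

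Cytosolic ribosomal protein genes are exposed to read placement, as 81 of the 85 tested have a named pseudogene. Of 85 tested, 4 rose (4.71%) and 11 fell (12.9%), against 14.4% and 17.9% of all 10100 genes. Of these 15 called genes, 9 departed in the same direction in MM.1S MONO replicate 2. The following genes each have a named pseudogene. RPS28 had 36.9 and 34.1 RPKM in MONO and 146 and 157 RPKM in TSW but 41.7 and 35.8 in CO, and departed by 1.54 in that library. RPL41 had 155 and 147 RPKM in MONO and 42 and 40.7 RPKM in TSW against 111 and 120.1 in CO, with a departure of -2.01. RPS27 had 122 and 137 RPKM in MONO and 44.9 and 41.6 RPKM in TSW against 150.3 and 154 in CO, with a departure of -2.58. In these genes TSW differed from MONO and CO alike. The list median of -0.04 changed sign with median-of-ratios scaling (0.04), with correction for GC content and length (0.11) and with no expression filter (0.01), and was -0.14 with quantile normalization and -0.49 without genes with a named pseudogene, so no direction is given for it. RPLP1, the most abundant, was not called, at 1971 and 2191 RPKM in MONO and 2894 and 3179 RPKM in TSW, except with median-of-ratios scaling (0.62), with correction for GC content and length (0.66), without MONO replicate 2 (0.62), without TSW replicate 1 (0.61) and without a fold change threshold, from 0.55.

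In glycolysis and the hypoxia response, 13 of 46 tested members rose and 2 fell. The median of 0.11 was 0.18 with median-of-ratios scaling, 0.18 without TSW replicate 1, 0.20 after correction for GC content and length, 0.20 without genes with a named pseudogene and 0.06 with no expression filter. SLC2A5, a fructose transporter, had 7.38 and 9.09 RPKM in MONO and 168 and 167 RPKM in TSW (log2 difference 4.19, SE 0.09, limma adjusted p = 2.1e-10). BHLHE40, a transcriptional repressor induced by hypoxia, had 7.55 and 8.06 RPKM in MONO and 77.1 and 77.8 RPKM in TSW (log2 difference 3.16, SE 0.07, limma adjusted p = 2.6e-10). HIF1A, the hypoxia-inducible factor with a named pseudogene, had 21.5 and 21.6 RPKM in MONO and 115 and 104 RPKM in TSW (log2 difference 2.3, SE 0.07, limma adjusted p = 2.6e-09). Each was low in both MONO libraries and high in both TSW libraries. GAPDH, the most abundant of the list and one with a named pseudogene, stood at 1463 and 1513 RPKM in MONO and 997 and 1146 RPKM in TSW and was not called, except with quantile normalization (-0.65 against -0.48) and without a fold change threshold. PGAM1, with a named pseudogene, fell to 40 and 39.2 RPKM from 95.3 and 91.1 and departed by -0.80 in MM.1S MONO replicate 2. HIF1A departed by 0.62 in that library, where replicate 3 stood alike and replicate 1 lower.

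Liver X receptors induce cholesterol efflux genes, and 8 of 12 tested targets rose while 0 fell by limma (at an unadjusted p under 0.05, 9 higher and 2 lower), with a median of 0.69. ABCA1, the main cholesterol exporter, had 0.852 and 1.02 RPKM in MONO and 20.6 and 19.8 RPKM in TSW (log2 difference 3.45, SE 0.09, limma adjusted p = 7.6e-10). ABCG1, its partner in efflux, had 2.78 and 3.38 RPKM in MONO and 12.8 and 12.2 RPKM in TSW, and NPC2, a lysosomal cholesterol carrier and the most abundant of the list, had 63.9 and 66.3 RPKM in MONO and 221 and 237 RPKM in TSW. In these genes TSW lay above MONO with no overlap. Genes of sterol and fatty acid synthesis, which SREBP factors control, showed 12 of 35 higher and 3 lower (median 0.24). INSIG1, a brake on SREBP, had 73.2 and 70.3 RPKM in MONO and 189 and 200 RPKM in TSW, and SCD, a desaturase with a named pseudogene, had 141 and 138 RPKM in MONO and 304 and 302 RPKM in TSW. Without TSW replicate 2 the median of this list was 0.14. The genes that fell were ACAT2, HSD17B7, with a named pseudogene, and CYP51A1, with a named pseudogene, and correction for GC content and length ended the calls of all 3, at -0.50, -0.47 and -0.54. HSD17B7 departed by -0.68 in MM.1S MONO replicate 2. The call of CYP51A1 also ended with median-of-ratios scaling (-0.58) and without MONO replicate 1 (-0.57).

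The list of NRF2 targets, which includes HMOX1, had 8 of 24 lower, 1 higher and 15 not called (median -0.26, or -0.17 after correction for GC content and length). NQO1, a quinone reductase, had 31.4 and 33.3 RPKM in MONO and 8.86 and 8.51 RPKM in TSW (log2 difference -1.78, SE 0.10, limma adjusted p = 1.4e-07), and GCLC, which opens glutathione synthesis, had 25.1 and 25.9 RPKM in MONO and 12.1 and 12.4 RPKM in TSW (log2 difference -1.0, SE 0.08, limma adjusted p = 1.8e-06). BLVRB, a biliverdin reductase with a named pseudogene, was the gene that rose, at 48.9 and 52.3 RPKM in MONO and 111 and 111 RPKM in TSW. FTL, the ferritin light chain and the most abundant, with a named pseudogene, was not called, at 2379.6 and 2477 RPKM in MONO and 1971 and 2261 RPKM in TSW. Lysosome and autophagy genes had 15 of 39 higher and 0 lower by limma (at an unadjusted p under 0.05, 23 higher and 4 lower), with a median of 0.48. WIPI1, an autophagy factor, had 8.0 and 8.21 RPKM in MONO and 38.3 and 37.6 RPKM in TSW (log2 difference 2.1, SE 0.08, limma adjusted p = 8.1e-09), and PSAP, the precursor of saposins, had 463 and 479 RPKM in MONO and 792 and 858 RPKM in TSW (log2 difference 0.81, SE 0.07, limma adjusted p = 2.5e-06).

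Among glucocorticoid receptor genes and targets, 6 of 12 rose and 2 fell (median 0.43). Besides HSD11B1 and SGK1, TSC22D3, the glucocorticoid-induced leucine zipper, had 1.75 and 2.09 RPKM in MONO and 14.5 and 13 RPKM in TSW (log2 difference 2.34, SE 0.10, limma adjusted p = 2.7e-08), and KLF9, a receptor target, had 3.38 and 3.31 RPKM in MONO and 13.8 and 12.5 RPKM in TSW (log2 difference 1.7, SE 0.09, limma adjusted p = 9.0e-08). FKBP5, a cochaperone that the receptor also induces, went the other way, from 20 and 19.3 RPKM to 12 and 12.8. Its call ended with median-of-ratios scaling (-0.56), quantile normalization (-0.58) and without TSW replicate 1 (-0.58), from -0.63. The list median was 0.06 with no expression filter and 0.65 without genes with a named pseudogene. The genes of the list that fell were FKBP4, with a named pseudogene, and FKBP5.

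Plasma cell identity genes moved in a mixed way, with 11 of 26 higher and 3 lower (median 0.39). IRF4, on which myeloma cells depend, had 78.9 and 77.7 RPKM in MONO and 43.7 and 37.2 RPKM in TSW (log2 difference -0.94, SE 0.09, limma adjusted p = 7.7e-06). PRDM1, which encodes the plasma cell factor BLIMP1, had 7.81 and 8.34 RPKM in MONO and 16.4 and 16.3 RPKM in TSW (log2 difference 0.94, SE 0.08, limma adjusted p = 2.7e-06). BCL6, a transcriptional repressor of germinal centre B cells, had 0.0945 and 0.0796 RPKM in MONO and 2.9 and 2.7 RPKM in TSW. SPIB, an ETS factor of B cells, had 0.182 and 0.191 RPKM in MONO and 2.81 and 3.41 RPKM in TSW. Both were under 1 RPKM in MONO and under 4 RPKM in TSW, with log2 differences of 1.8 and 1.79, or 3.96 and 3.48 with a pseudocount of 0.1. JCHAIN and XBP1, each with a named pseudogene, rose by 0.80 and 1.24. Besides IRF4, the genes that fell were HES1, a Notch target, at 7.62 and 6.75 RPKM in MONO and 2.51 and 1.68 RPKM in TSW, and CUL4A, a scaffold of the cereblon ubiquitin ligase with a named pseudogene, at 29.2 and 28.9 RPKM in MONO and 19 and 18.5 RPKM in TSW. The call of CUL4A ended with each scaling tried, at -0.53 after correction for GC content and length, -0.53 with median-of-ratios scaling and -0.54 with quantile normalization, from -0.60.

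Of 22 tested genes in the list of myeloma surface and immunotherapy targets, 10 rose and 2 fell. The median was 0.48, or 0.19 with no expression filter. The list mixes immunotherapy targets with other genes, such as ICAM1 and LGALS9. CD38, the target of daratumumab, had 16 and 16 RPKM in MONO and 49.6 and 42 RPKM in TSW (log2 difference 1.46, SE 0.09, limma adjusted p = 2.2e-07), and since the cells were sorted as CD38+, this gene was also part of how the cells were collected. CD274, which encodes PD-L1, had 0.821 and 0.532 RPKM in MONO and 3.77 and 3.52 RPKM in TSW (log2 difference 1.47, SE 0.11, limma adjusted p = 1.3e-06). LGALS9, a ligand of the T cell inhibitory receptor TIM-3, had 0.124 and 0.542 RPKM in MONO and 3.73 and 3.53 RPKM in TSW. With a pseudocount of 0.1 the differences were 2.29 for CD274 and 3.3 for LGALS9 against 1.81. The genes of the list that fell were TNFRSF17 and NCAM1, which were among the strongest decreases. CD38, CD274 and LGALS9 were each higher in both TSW libraries than in either MONO library.

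Chemokine, chemokine receptor and adhesion genes had 18 of 31 higher and 5 lower (median 0.79, or 0.32 with no expression filter). ITGAX, the integrin CD11c, had 0.101 and 0.228 RPKM in MONO and 11.7 and 14.1 RPKM in TSW (log2 difference 3.57, SE 0.11, limma adjusted p = 2.3e-09, or a difference of 5.66 with a pseudocount of 0.1). CCR2, a receptor for monocyte chemokines, had 25.3 and 26 RPKM in MONO and 159 and 156 RPKM in TSW (log2 difference 2.57, SE 0.06, limma adjusted p = 7.6e-10), and SELPLG, the selectin ligand PSGL-1, had 60.5 and 63.9 RPKM in MONO and 276 and 316 RPKM in TSW (log2 difference 2.23, SE 0.08, limma adjusted p = 8.1e-09). RGS1, which dampens chemokine receptor signals, had 2.63 and 3.32 RPKM in MONO and 20.6 and 24.8 RPKM in TSW (log2 difference 2.58, SE 0.12, limma adjusted p = 3.7e-08). In each of them the TSW libraries were high and the MONO libraries low. ITGB7, the most abundant of the list, had 326 and 354 RPKM in MONO and 587 and 623 RPKM in TSW (log2 difference 0.83, SE 0.07, limma adjusted p = 3.3e-06). CXCR3, the receptor of CXCL10, fell beside its ligand, with 18.9 and 20.7 RPKM in MONO and 2.65 and 3.33 RPKM in TSW (log2 difference -2.39, SE 0.12, limma adjusted p = 6.9e-08).

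In the BCL2 family, 4 of 17 tested genes rose (23.5%) and 2 fell (11.8%), against 14.4% and 17.9% of all 10100 genes. The median of -0.13 was -0.05 with median-of-ratios scaling and -0.06 with no expression filter. It was -0.20 with the filter at 5 RPKM or without genes with a named pseudogene. MCL1, the survival protein on which many myeloma cells depend, had 70.7 and 63.4 RPKM in MONO and 398 and 355 RPKM in TSW (log2 difference 2.47, SE 0.08, limma adjusted p = 3.0e-09). The BH3-only genes BMF, BBC3 and PMAIP1, which oppose survival, rose as well. BMF had 4.62 and 4.29 RPKM in MONO and 12.9 and 14.1 RPKM in TSW, BBC3 had 1.35 and 1.68 RPKM in MONO and 4.96 and 4.84 RPKM in TSW and PMAIP1 had 13.2 and 12.6 RPKM in MONO and 25.5 and 21 RPKM in TSW. BIK and HRK, also BH3-only genes, fell, BIK from 15 and 15.1 to 5.09 and 6.67 RPKM and HRK from 2.79 and 2.02 to 0.469 and 0.637 RPKM (log2 difference -1.12, or -1.93 with a pseudocount of 0.1). The list thus held survival and death genes among those that rose. VEGFA, an angiogenic factor of the marrow niche, had 10.6 and 10.3 RPKM in MONO and 17.7 and 17.7 RPKM in TSW (log2 difference 0.71, SE 0.08, limma adjusted p = 1.6e-05).

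Of 46 listed stromal matrix, protease and cytokine genes found in the table, 19 were tested in RPMI8226. In TSW 2 rose (10.5%) and 3 fell (15.8%), against 14.4% and 17.9% of all 10100 genes, and the list median was 0. Several passed the filter through their level in CO, where the median difference to MONO was 2.04, so their number says nothing of TSW. That level may include RNA of remaining HS5 cells. CXCL12, a stromal chemokine that RPMI8226 cells expressed in monoculture, rose from 18.6 and 19.3 RPKM to 32.7 and 34.1 (log2 difference 0.79, SE 0.07, limma adjusted p = 5.7e-06). LOX, a collagen crosslinking enzyme, had 0.223 and 0.25 RPKM in MONO and 1.1 and 0.857 RPKM in TSW, and its call ended with quantile normalization (0.36 against 0.68), while a pseudocount of 0.1 gave 1.67. FN1 fell from 3989.7 and 4309.9 RPKM to 1678 and 1962 (log2 difference -1.19, SE 0.09, limma adjusted p = 1.1e-06), IGFBP3 from 26.4 and 30.6 to 7.01 and 8.9, and CAV1 from 28.1 and 28.6 to 17.4 and 17.7. The call of CAV1 ended after correction for GC content and length (-0.55 against -0.66). The collagen genes COL1A2 and COL3A1 had no pair in TSW.

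**Figure D4:**
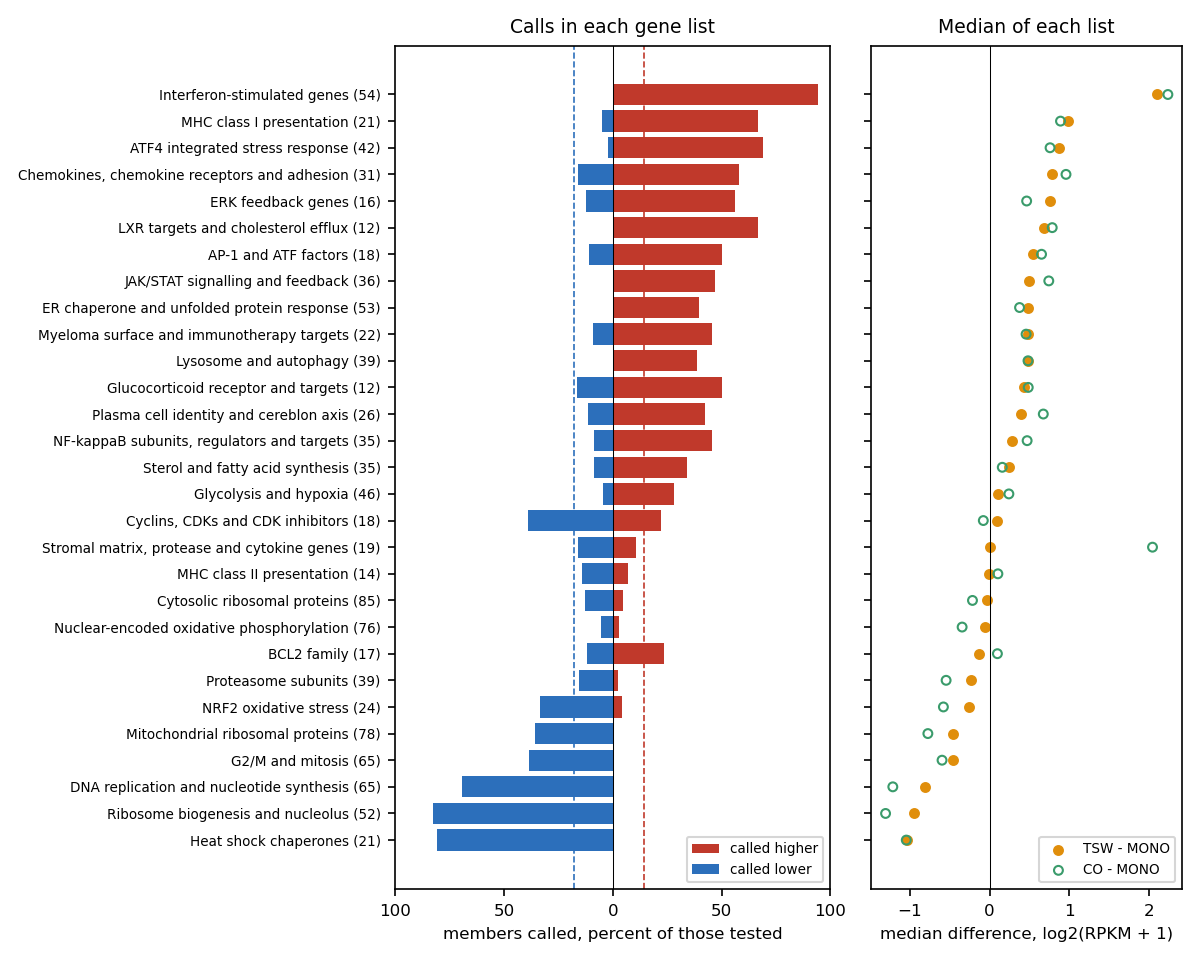
Left, the percentage of tested members called higher (red) and lower (blue) in TSW than in MONO in each of 29 gene lists, with the number tested in brackets and dashed lines at the 14.4% higher and 17.9% lower of all 10100 genes. Right, the median difference of each list in log2(RPKM + 1) for TSW vs MONO (filled) and CO vs MONO (open), from -1.03 for heat shock chaperones to 2.10 for interferon-stimulated genes in TSW; the medians of MHC class II, oxidative phosphorylation and cytosolic ribosomal protein genes change sign with the scaling.

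Called genes that departed in the same direction in MM.1S MONO replicate 2 were counted in each list, as a rough measure of placement. They were 9 of 15 called genes in the cytosolic ribosomal protein list, 2 of 6 in oxidative phosphorylation, 2 of 15 in glycolysis and hypoxia and 3 of 25 in mitosis. There was 1 such gene in each of the lists of heat shock chaperones, DNA replication, ribosome biogenesis, mitochondrial ribosomal proteins, sterol synthesis, MHC class I, ER chaperones and lysosome, and 0 in the other 17 lists, interferon-stimulated genes among them. For HIF1A, counted in glycolysis and hypoxia, and FNIP2, counted in lysosome, replicates 2 and 3 stood alike and replicate 1 stood apart. FNIP2 had 2.79, 7.65 and 7.70 RPKM in MM.1S MONO replicates 1, 2 and 3. The part of read placement in these and the other differences was not tested.

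The lists were also read in CO, which shares the MONO libraries with TSW, so the values stand side by side and no likeness is computed. The median of interferon-stimulated genes was 2.1 in TSW and 2.24 in CO, that of the ATF4 list 0.87 and 0.76, that of heat shock chaperones -1.03 and -1.05, that of DNA replication -0.81 and -1.22 and that of ribosome biogenesis -0.94 and -1.31. The list medians were unchanged at 3 decimals when genes without a pair in 1 condition were put at their bound. Apart from MHC class II, oxidative phosphorylation and cytosolic ribosomal protein genes, the stromal list whose median was 0, and the cyclin list whose median was 0 with no expression filter, no list median changed sign under any alternative tried.

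The same comparison in MM.1S asked whether these differences were shared by another line. Among 9217 genes tested in both lines, 2444 (26.5%) had a called difference between the lines in the limma interaction test, 990 with a higher value in RPMI8226 and 1454 with a lower value, and without MM.1S MONO replicate 2 the count was 2480. RPMI8226 had 1233 genes higher and 1646 lower among these, and MM.1S had 588 higher and 340 lower. Of them, 326 were higher in both lines and 161 lower in both. Genes called in opposite directions with a called difference numbered 44, of which 28 were higher in RPMI8226 TSW. In 11 of the 9217 genes every MONO and TSW library of MM.1S stood at 0 RPKM, so MM.1S gave no measured difference; 1 of these, CXCL8, is among the 2444.

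Genes with like differences in both lines included ABCA1, at 3.45 in RPMI8226 and 3.41 in MM.1S, SLC2A5, at 4.19 and 3.95, and CHAC1, at 3.21 and 3.58. The differences between lines were 0.04, 0.25 and -0.37 (limma adjusted p = 0.83, 0.22 and 0.27), which does not show that they are equal. This likeness depends on the pseudocount. In MM.1S, ABCA1 had 0.102, 0.0818 and 0.111 RPKM in MONO and 11.5, 10.8 and 9.92 in TSW, a larger ratio than in RPMI8226. CHAC1 had 1.85, 3.74 and 2.66 RPKM in MM.1S MONO and 42.7, 43.8 and 42.2 in TSW, a smaller ratio than in RPMI8226. The interferon-stimulated genes had a median of 2.1 in RPMI8226 and 0.30 in MM.1S, and the difference between lines was 3.88 for MX1 (limma adjusted p = 5.8e-09) and 3.66 for OAS1 (1.1e-09). IFI44 and OASL had no tested difference in MM.1S, so the medians need not cover the same genes. HMOX1 fell by 4.37 in RPMI8226 and stood at 0.24 in MM.1S, where it was not called (difference -4.61, limma adjusted p = 2.7e-09). IL32 and SOCS3 rose in both lines and less in RPMI8226 on the log2 scale. The differences between lines were -3.06 and -1.47 (limma adjusted p = 5.8e-09 and 1.7e-06). In MM.1S, IL32 had 0.25, 0.197 and 0.34 RPKM in MONO and 84.9, 75.3 and 67.3 in TSW. In RPMI8226 it had 61.9 and 62.9 RPKM in MONO and 418 and 507 in TSW.

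The named genes were chosen by their differences in RPMI8226, so their share with a called difference between the lines describes that choice. Of 163 named genes tested in both lines, 121 had such a difference, 56 above 0 and 65 below 0. Values of TSW vs MONO for the lines come from tables that the authors normalized separately, and only differences within a table were compared.

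**Figure D5:**
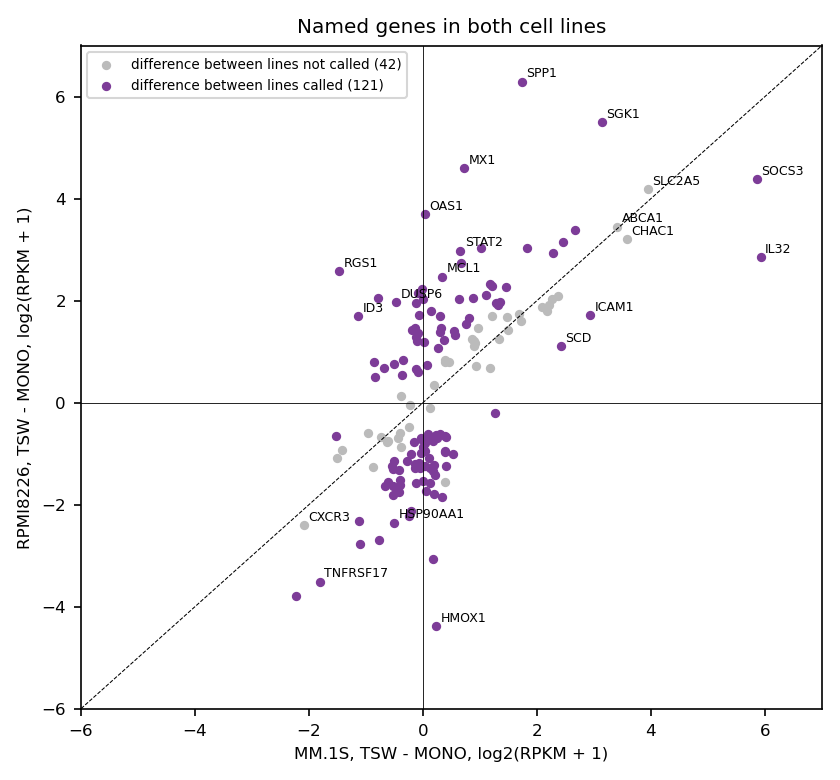
Difference between TSW and MONO in log2(RPKM + 1) of 163 named genes in MM.1S (x axis) and RPMI8226 (y axis), 1 point per gene, with the dashed line at equal differences. The 121 genes in purple had a called difference between the lines and the 42 in grey did not; MX1, OAS1 and SPP1 lie above the line and IL32 and HMOX1 below it.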

How the data were processed

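Paired-end RNA-Seq of 6 RPMI8226 and 9 MM.1S libraries was used. The authors aligned reads to hg38 with Subread, counted them on RefSeq transcripts with featureCounts and deposited 1 table per line, whose values are log2 of RPKM + 1 with 0.0001 added; RPKM itself was assumed when the design was written. From the steps between values, RPKM was turned back into pair counts, and 100% of values above 0 lay within 0.05 of a whole count. The authors called genes with edgeR; here limma 3.58.1 in R 4.3.3 (lmFit, contrasts.fit, eBayes with a trend) was fitted to log2(RPKM + 1) with MONO, TSW and CO of RPMI8226 as 3 conditions and 3 residual degrees of freedom. All genes that passed the filter were adjusted together (Benjamini-Hochberg), and pseudogenes and mitochondrial tRNA genes were set aside afterwards. Gene types came from RefSeq, to which 20407 of the 20468 genes were matched by gene ID, and 8 of the 10100 genes described were unmatched. The difference between lines was a contrast over 15 libraries. The procedure was run on simulated data, but the outcome is not given here and no result rests on it. Other steps used Python 3.11.15, numpy 2.4.6, pandas 2.3.3 and matplotlib 3.10.9.

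Genes were named by a rule: among called genes without overlap of MONO and TSW, the 10 largest increases and the 10 largest decreases; in each of 29 gene lists, the 4 called members with the largest increase, the 4 with the largest decrease and the member with the highest mean RPKM; SOCS3, MCM5, STAT3, ABCA1, SGK1, JUNB, ATF4, CEBPB, VEGFA, PIM3 and MCL1, which the study uses as examples; and RPS14P3 and the mitochondrial tRNA genes. The called list members were also taken from genes without overlap. Not all genes of this choice are described. The genes, lists and markers were chosen with earlier results of these data known, and lists were described by counts and medians without a test. Genes without a pair in both libraries of a condition were compared with a floor of 3 pairs per library. Alternatives changed the pseudocount, the expression filter, the scaling, the variance model, a correction for GC content and length (loess, span 0.3, for the 99.75% of genes with both values), the replicates, and the genes kept.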

Additional observations from a re-analysis of the deposited data

Results flagged for a closer look

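The difference between TSW and MONO differed between RPMI8226 and MM.1S by the limma interaction test for 121 of the 163 named genes tested in both lines. Values are given singly for the 21 whose differences lay more than 2 apart on the log2 scale or had calls in opposite directions. This size limit of 2 was chosen after the values were seen, and the other 100 differed by up to 1.99. All differences below are on the scale of log2(RPKM + 1), so they depend on the level in MONO as well as in TSW.

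The difference was higher in RPMI8226 for SPP1 (6.29 in RPMI8226, 1.73 in MM.1S, difference 4.56), MX1 (4.6 in RPMI8226, 0.73 in MM.1S, difference 3.88) and OAS1 (3.7 in RPMI8226, 0.03 in MM.1S, difference 3.66). It was also higher for SGK1 (5.51 in RPMI8226, 3.14 in MM.1S, difference 2.36) and STAT2 (2.98 in RPMI8226, 0.66 in MM.1S, difference 2.32). For CXCL8 (2.04 in RPMI8226, 0 in MM.1S, difference 2.04) the value in MM.1S is not a measured difference. All MONO and TSW libraries of that line stood at 0 RPKM. The gene was tested there through CO (25.5, 23.0 and 22.7 RPKM), whose values may include HS5 RNA. The phosphatase genes DUSP6 (1.97 in RPMI8226, -0.47 in MM.1S, difference 2.44) and DUSP5 (with a named pseudogene, 2.74 in RPMI8226, 0.67 in MM.1S, difference 2.07) and the MHC class I genes HLA-E (1.96 in RPMI8226, -0.11 in MM.1S, difference 2.08) and HLA-F (2.14 in RPMI8226, -0.08 in MM.1S, difference 2.22) followed, with CTH (3.03 in RPMI8226, 1.01 in MM.1S, difference 2.01), SELPLG (2.23 in RPMI8226, -0.02 in MM.1S, difference 2.25) and MCL1 (2.47 in RPMI8226, 0.34 in MM.1S, difference 2.13). Calls in opposite directions were found for ID3 (1.69 in RPMI8226, -1.13 in MM.1S, difference 2.83), JCHAIN (with a named pseudogene, 0.80 in RPMI8226, -0.85 in MM.1S, difference 1.65) and RGS1 (2.58 in RPMI8226, -1.46 in MM.1S, difference 4.04), each called higher in RPMI8226 TSW and lower in MM.1S TSW.

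The difference was lower in RPMI8226 for HMOX1 (-4.37 in RPMI8226, 0.24 in MM.1S, difference -4.61), IL32 (2.86 in RPMI8226, 5.92 in MM.1S, difference -3.06) and IGLV6-57 (-3.07 in RPMI8226, 0.17 in MM.1S, difference -3.24). Among cytosolic ribosomal protein genes with a named pseudogene, values were found for RPS28 (2.06 in RPMI8226, -0.79 in MM.1S, difference 2.85) and RPL41 (-1.84 in RPMI8226, 0.34 in MM.1S, difference -2.18). Replicate 2 of MM.1S MONO departed from the other 2 MM.1S MONO libraries by 1.54 for RPS28 and -2.01 for RPL41, and the part of read placement in these differences was not tested.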

How the results depend on the processing

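Under the alternatives run, no call of a gene between TSW and MONO reversed. Without a fold change threshold, 2930 genes were higher and 3837 lower, since small differences passed. Under the other settings the count of genes higher in TSW lay between 1128, with the filter at 5 RPKM and fewer genes tested, and 1722, with limma-voom on pair counts, and the count lower between 1338 and 2180 under the same settings. With a replicate block, 1451 genes were higher, 1807 lower and 2461 differed between the lines. The labels do not say that replicate numbers pair libraries, and departures from the condition mean correlated at 0.271 between MONO and TSW of like number. Leaving out each MM.1S MONO or TSW library in turn gave 2328 to 2701 genes that differed between the lines. Leaving out an RPMI8226 MONO or TSW library left a lone library in that condition, which was assumed to vary like the others. No count is given for those fits, and no CO library was left out. GC content and length correction gave 1699 genes higher and 1430 lower, and median-of-ratios scaling 1650 and 1518. The cause of these shifts was not tested. Of the 3257 calls, 88.2% were kept under the GC content and length correction and 91.2% under median-of-ratios scaling. Leaving out genes with a named pseudogene left 1311 higher and 1361 lower. Leaving out genes that depart in MM.1S MONO replicate 2, an alternative chosen after seeing the data, left 1413 and 1730. Without the threshold, 3531 genes differed between the lines, and other settings gave 1775 to 2979. The depth may limit genes near 1 RPKM. A pseudocount of 0.1 raised the counts to 1708 higher and 2147 lower, and whether the added calls lie near 1 RPKM was not tested.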
